A study of Homo sapiens with 15 samples.

Results

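Sites of open chromatin that were called as peaks in some libraries of K562 cells and not in others are described here. All peaks on chromosomes 1 to 22 of 15 peak lists (build hg19) were merged wherever they overlapped by at least 1 bp, which gave 118109 regions. A region counted as variable when 5 to 10 of the 15 lists held a peak in it, and 20028 regions (16.96%) met this rule. The regions were chosen by their presence in the deposited lists, so their peak strengths and widths are given as a description and without a test.

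K562 is a human erythroleukemia line. The cells carried lentivirus for dCas9, a Cas9 that a guide RNA (gRNA) brings to DNA but that does not cut it, or for dCas9 fused to the repressor domain KRAB, and were selected with puromycin. The 5 groups, with 3 libraries each, were dCas9-KRAB with gRNA Cr4, dCas9-KRAB with gRNA Cr10, dCas9 with Cr4, dCas9 with Cr10, and dCas9-KRAB without a gRNA. Both gRNAs were directed at HS2, an enhancer of the beta-globin locus control region, and the question of the study was how specific such repression is across the genome. A label field gave HS2 as the gRNA target for the cells without a gRNA too, so titles and the design text set the groups. The design text speaks of triplicates, but no label says whether the numbered libraries came from separate cultures, so p-values measure the spread between these libraries, which may be technical. The sources used here do not say what the replicate numbers stand for.

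Where transcription factors have displaced nucleosomes, a nuclease cuts DNA in nuclei more readily, and sequenced fragments pile up into peaks. Strong sites such as active promoters and well occupied enhancers tend to be found in nearly every library of a cell line. Weak sites, which often are distal, lie close to the threshold of the peak caller, where presence in a list depends on sequencing depth as well as on the cells. A missing peak therefore does not show closed chromatin. HS2 itself, an erythroid hypersensitive site, had a peak in 15 of 15 lists.

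The variable regions were weak and narrow next to the regions found in every list. Their median width was 312 bp (5% to 95% range, 243 to 567 bp), against 547 bp for the 37968 regions in all 15 lists. The authors' fold enrichment over local background at the summit had a median of 4.40 in the variable regions and 8.50 in the regions of all lists, and the authors' −log10 q-values had medians of 9.99 and 42.4. The pileup of fragments at the summit, worked out from the fold and p-value columns, had a median of 31 fragments over peaks in variable regions and of 75 over peaks in regions of all lists. Summits of different lists lay close together, but less so than in the regions of all lists. They spanned a median of 72 bp within a variable region, against 54 bp in regions of all 15 lists. The span was at most 100 bp in 71.0% of the variable regions and in 84.5% of the regions of all lists.

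More than 1 peak of the same list fell into 690 of them (3.45%), against 20.1% of the regions in all 15 lists. The median distance to the nearest region in all 15 lists was 13076.5 bp, and 1344 variable regions (6.71%) lay within 500 bp of one. This share did not set them apart: 6.39% of the regions in 15 lists lay within 500 bp of another such region, and the shares for regions in 1, 2 to 4 and 11 to 14 lists were 6.02%, 6.51% and 6.75%. By chromosome, the variable share of all regions ran from 13.4% on chromosome 19, where 42.5% of regions were in all 15 lists, to 19.4% on chromosome 13, where 27.02% were. Base composition and promoter overlap were not analysed here, since no hg19 sequence or annotation was used.

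The limits of the rule cut through a gradual series. Regions in 4 lists, just below the lower limit, numbered 5029 and had a median fold of 3.94, a median rank percentile of 17.7 and a median width of 285 bp. The rank percentile of a peak is its position by fold within its list, 100 for the strongest. Regions in 5 lists, just inside, numbered 4128 with 4.07, 19.7 and 297 bp for these measures. At the upper limit, the 2937 regions in 10 lists had a median fold of 4.70, a median rank percentile of 27.8 and a median width of 331 bp, and the 3095 regions in 11 lists, just outside, had 4.82, 29.4 and 334 bp.

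**Figure D1:**
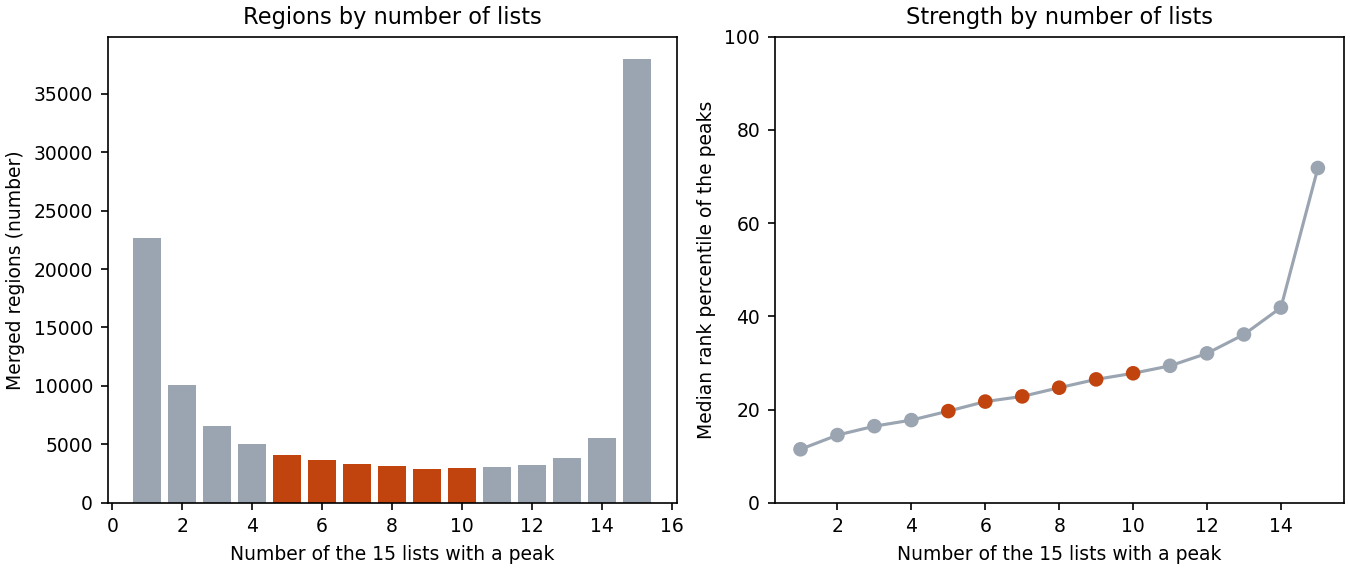
Left, the number of merged regions (vertical axis) by the number of lists with a peak (horizontal axis), with the variable regions in 5 to 10 lists in red and the other regions in grey. Right, the median rank percentile of the peaks in these regions, which is 19.7 in regions of 5 lists, 27.8 in regions of 10 lists and 71.8 in regions of all 15 lists.

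A few variable regions were strong where they were called. The median rank percentile over the lists that held a region had an upper quartile of 34.5 over the variable regions and was above 50 in 570 of them (2.85%). The strongest by this measure was chr22:36317800-36318133, in 10 lists with a median rank percentile of 72.9, a median fold of 8.87 and summit pileups of 19 to 69 fragments. It was followed by chr2:196187048-196187410 (10 lists, 70.3), chr4:81990932-81991269 (10 lists, 69.2), chr9:90788331-90788625 (10 lists, 69.1) and chr12:9950633-9950961 (9 lists, 66.0). All 5 replicate 3 lists held each of these 5 regions, whereas the 5 replicate 1 lists held 1, 1, 2, 0 and 1 times a peak there, in the order of the regions just given.

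Presence was higher in longer lists. The 4 lists of over 80000 peaks on chromosomes 1 to 22 came from dCas9-KRAB with Cr4 replicate 3, dCas9 with Cr4 replicate 3, dCas9 with Cr10 replicate 3 and dCas9-KRAB without gRNA replicate 2, and they held 86.2%, 83.1%, 90.2% and 86.5% of the variable regions. The 11 shorter lists held between 13.9% (dCas9 with Cr10 replicate 1, 51784 peaks) and 50.7% (dCas9 with Cr4 replicate 2, 68841 peaks). No shorter list thus reached the lowest of the 4 long ones. Over the libraries, variable regions made up 5.40% to 20.4% of a list.

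In the dCas9-KRAB libraries with Cr4, 7257, 5613 and 17274 variable regions had a peak (replicates 1, 2 and 3). With dCas9-KRAB and Cr10 these counts were 4877, 8647 and 9416. In dCas9 libraries they were 7916, 10158 and 16641 with Cr4, and 2791, 8540 and 18068 with Cr10. Without a gRNA they were 5954, 17331 and 5479. Libraries of the same group thus differed widely, and the ranges of the 5 groups overlapped.

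The share of variable regions present correlated with the number of peaks in the rest of the same list over the 15 libraries (Pearson r = 0.980, Spearman rho = 0.946). This is a description: both counts come from the same list and share its depth and threshold, and regions chosen for presence in an intermediate number of lists will tend to be present in the longer ones. Without the lists farthest from the median length (dCas9 with Cr10 replicate 3 and dCas9-KRAB with Cr4 replicate 3) r was 0.981. The 4 long lists stand apart in the plot of presence against list length, so r was also taken within the 11 shorter lists, where it was 0.922 (rho = 0.873) and 0.885 without the farthest pair of lists. The long lists are too few for a value of their own.

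**Figure D2:**
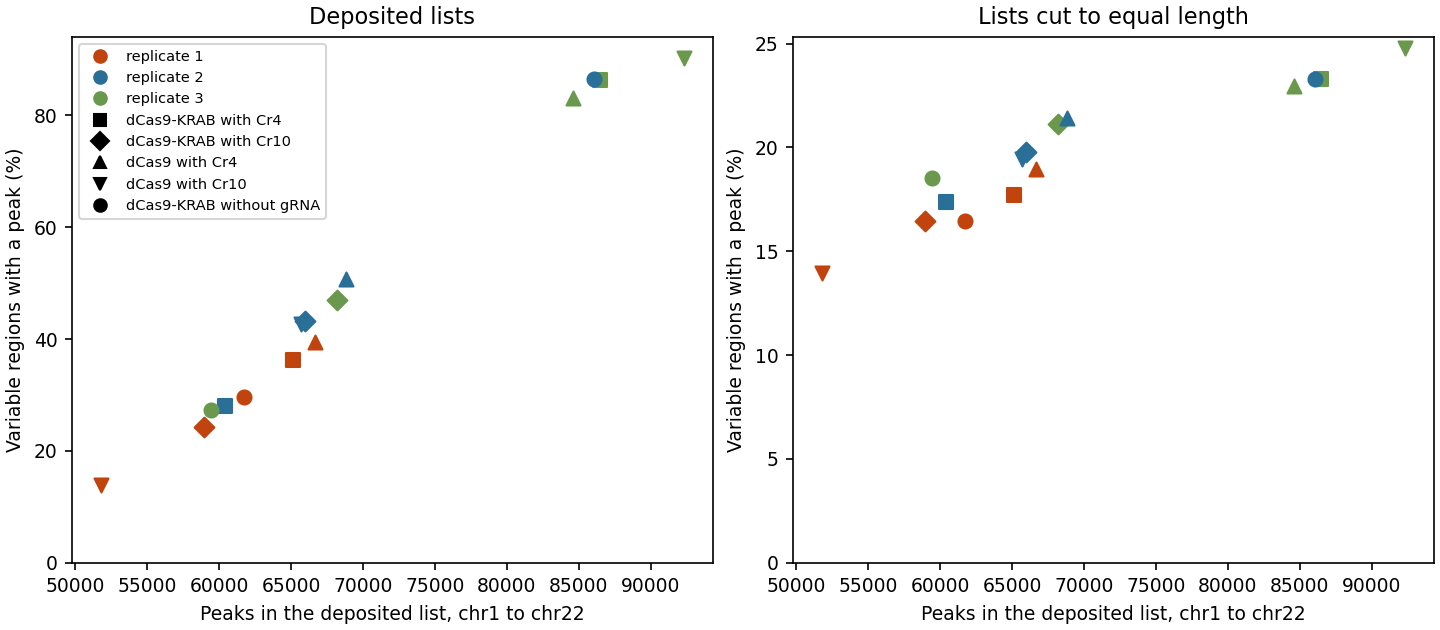
Share of the 20028 variable regions with a peak (vertical axis, %) against the peaks in the deposited list (horizontal axis), 1 point per library, coloured by replicate number and shaped by group. With the deposited lists (left) the 4 long lists hold 83.1% to 90.2%, and after every list is shortened to its 51784 strongest peaks (right) the shares run from 13.9% to 24.8%.

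Most variable regions had a peak in the long lists, but few followed list length exactly. All 4 long lists held 11404 of the variable regions (56.9%), at least 3 of them held 18046 (90.1%), and none of the 4 held only 5. In 19795 variable regions (98.8%) the lists with a peak were longer on average than those without. Of all variable regions, 441 (2.20%) were present in exactly the longest lists, that is, in no list shorter than one without a peak. The regions fell into 4295 different combinations of lists, and the commonest, the 4 long lists together with dCas9 with Cr4 replicate 2, held 171 regions (0.854%).

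The depth behind these peaks differed in the same direction. The median summit pileup of peaks in variable regions was 35 to 40 fragments in the 4 long lists and 19 to 27 in the 11 shorter ones. In regions of all 15 lists these medians were 100 to 116 and 44 to 77 fragments. The sources used here do not give the numbers of sequenced fragments, and whether depth accounts for the missing peaks was not tested.

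Presence also varied between lists of nearly equal length. The 4 such lists, of 65109 to 66678 peaks, came from dCas9-KRAB with Cr4 replicate 1, dCas9-KRAB with Cr10 replicate 2, dCas9 with Cr4 replicate 1 and dCas9 with Cr10 replicate 2. All 4 held 614 of the variable regions (3.07%) and none of them held 2749 (13.7%). The variable regions that both lists of a pair held were 0.220 to 0.330 of those that either held (Jaccard index, 6 pairs), and the highest value was that of the 2 lists with replicate number 1, which had 3768 variable regions in common and also share the gRNA Cr4. The 2 lists with replicate number 2, which share Cr10, had 0.278, just below the 0.279 of a pair that shares neither number nor gRNA.

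Shortening each list to its 51784 strongest peaks by fold, the length of the shortest list, removed most of the calls. Of the variable regions, 14740 (73.6%) still had a peak in at least 1 shortened list, 9309 (46.5%) in at least 3 and 5645 (28.2%) in at least 5, while 5288 (26.4%) had none. The shortened lists held 2791 to 4964 variable regions. The correlation with the number of other peaks in the deposited list was r = 0.926 over the 15 libraries (rho = 0.904) and 0.896 without the same 2 lists. Within the 11 shorter lists it was 0.848 (rho = 0.764) and 0.803 without the farthest pair.

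The number of variable regions present was also compared by replicate number. The replicate 1 lists held a mean of 5759 ± 2032 variable regions (28.8%), the replicate 2 lists 10058 ± 4386 (50.2%) and the replicate 3 lists 13376 ± 5611 (66.8%; SD, n = 5 each). The difference between replicate 1 lists and the lists of the other numbers was −5957.7 regions (exact two-sided permutation p = 0.0260, and 0.0769 adjusted over the 3 replicate numbers). For replicate 2 and replicate 3 the differences from the rest were 490.5 and 5467.2 (exact permutation p = 0.876 and 0.0513, adjusted 0.876 and 0.0769). None of the 3 passed 0.05 after adjustment.

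List length and replicate number overlap in this series. Replicate 1 lists had 60856 ± 5888 peaks, replicate 2 lists 69388 ± 9802 and replicate 3 lists 78203 ± 13782 (SD, n = 5 each), and no replicate 1 list was among the 4 long ones. In lists of equal length, replicate 1 held 3346 ± 375 variable regions against 4247 ± 479 (SD, n = 5 and 10, exact permutation p = 0.003996). The regions were chosen by presence in the deposited lists, and shortening the lists afterwards does not undo this choice. This p-value therefore cannot separate replicate number from list length. Without the 4 long lists the difference in the deposited lists was −2216.5 regions (exact permutation p = 0.102). It was −5737.2 without dCas9-KRAB with Cr10 replicate 1 (exact permutation p = 0.0559) and −5215.7 without dCas9 with Cr10 replicate 1 (exact permutation p = 0.0639).

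Region by region, 4777 variable regions (23.9%) were absent from all 5 replicate 1 lists, 588 (2.94%) from all replicate 2 lists and 21 (0.105%) from all replicate 3 lists. All 5 lists of a number held 45 (0.225%), 574 (2.87%) and 2550 (12.7%) for replicates 1, 2 and 3. Presence in every list of some replicate numbers and in no list of the others was seen in 147 variable regions, which are also all such regions among the 80141 regions missing from at least 1 list (0.183%). Of these, 70 were in replicate 3 alone and 77 in replicates 2 and 3, and none was in replicate 1 alone. Only regions in 5 or 10 lists can show this pattern, so its share of the variable regions is set by the rule.

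**Figure D3:**
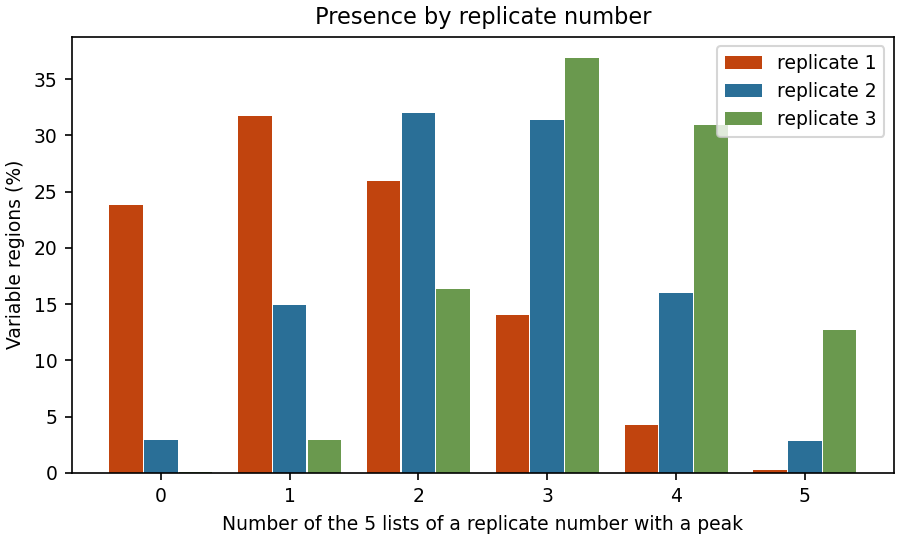
Share of the variable regions (vertical axis, %) by how many of the 5 lists of a replicate number hold a peak (horizontal axis), for replicates 1, 2 and 3. Replicate 1 has 23.9% of regions at 0 lists, and replicate 3 has 12.7% at 5 lists.

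On average, library pairs with the same replicate number shared their variable regions more than other pairs. The phi coefficient, a correlation of presence and absence over the 20028 regions, averaged 0.055 over the 30 pairs with the same number (range, −0.0886 to 0.359). It averaged −0.0147 over the other 75 pairs, whose range overlapped (−0.114 to 0.311). The difference was 0.0697 (one-sided permutation of the replicate numbers, p = 0.00328, adjusted p = 0.00656 over both labels tested). Because the regions were chosen to be in 5 to 10 lists, 0 is not the value of unrelated lists, and the pairs are read against each other only. Within replicates 1 and 3 the 10 pairs each averaged 0.0638 (range, −0.0886 to 0.215) and 0.0576 (range, 0.000514 to 0.156). In replicate 1, dCas9 with Cr10 had a negative phi with every other list (−0.0886 to −0.0166). Among the replicate 2 pairs, dCas9 with Cr4 and dCas9-KRAB without gRNA reached 0.359, and the other 9 ran from −0.0507 to 0.0541. After 0.359, the highest values of all pairs were 0.311, 0.265 and 0.258, each between lists of different replicate numbers.

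The difference between same-numbered and other pairs was not confined to the long lists. It was 0.078 without them (permutation p = 0.0109) and 0.0718 in lists of equal length (permutation p = 0.00123). Leaving out each library in turn gave differences of 0.054 to 0.0953, with permutation p-values of 0.00068 to 0.0102. The regions were chosen by presence in the deposited lists, and shortening the lists does not undo this choice. Replicate number also overlaps with list length, so these p-values cannot separate replicate number from list length.

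Libraries of the same group showed no such excess. Their 15 pairs had a mean phi of −0.0374 (range, −0.0791 to 0.0369), against 0.0123 for the 90 pairs of different groups, a difference of −0.0497 in the opposite direction to the one tested (one-sided permutation p = 0.997). Pairs of the same group always differ in replicate number, so both comparisons use some of the same pairs.

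**Figure D4:**
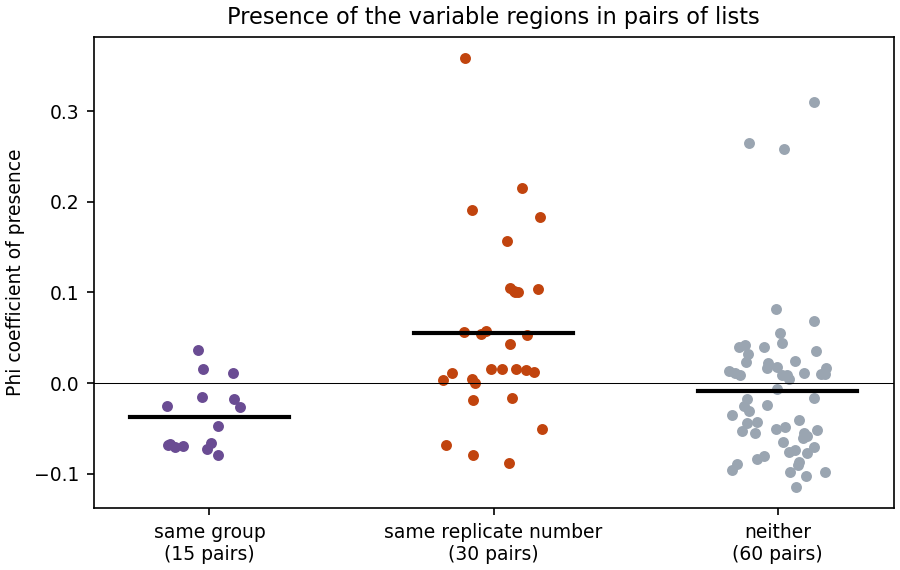
Phi coefficient of presence of the variable regions (vertical axis) for each pair of lists, by the kind of pair, with the mean as a black line. The means are −0.0374 for pairs of the same group, 0.055 for pairs of the same replicate number and −0.00903 for the 60 pairs that share neither.

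Rank percentiles in the lists of equal length, with 0 for no peak, were compared across libraries with limma over all 61217 regions that had a value in at least 3 libraries. Of the variable regions, 9309 entered this test. An F test over the 3 replicate numbers called 105 of them at an adjusted p below 0.05 (1.13%), against a background of 1.05% of all regions tested. In this fit the variable regions were thus called at nearly the rate of all regions. Against the mean of replicates 2 and 3, ranks in replicate 1 were lower in 91 of the 105 and higher in 14. The F test also responds to differences between replicates 2 and 3, and in many of the 91 replicate 2 was low too. At chr6:97365030-97365348, with the lowest p of the 105, mean rank percentiles were 0, 2.53 and 46.2 in replicates 1, 2 and 3. At chr18:52786609-52786972, also counted among the 91, they were 22.4, 0 and 45.4. Over all regions tested, ranks in replicate 1 were lower in 439 of the 643 called (0.717% of the regions tested). Among the 91, 53 had no peak in any replicate 1 list. The median number of lists with a peak over the 91 was 0, 3 and 5 for replicates 1, 2 and 3.

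The count of 105 changed with single libraries and with the model. It was 56 without dCas9-KRAB with Cr4 replicate 1, 39 without dCas9-KRAB with Cr10 replicate 1, 42, 43 and 59 without dCas9 with Cr4 replicates 1, 2 and 3, and 54 without dCas9 with Cr10 replicate 3. It was 59 without dCas9-KRAB without gRNA replicate 2, and 205 without dCas9 with Cr10 replicate 1. With list length as a term of the model 21 were called (0.226% of the variable regions tested, background 0.101%). With group as a term 22 were called (0.236%, background 0.173%), and without the 4 long lists 84 (0.902%, background 0.225%). The shares of the variable regions and of all regions were thus less alike in these fits.

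The regions named next were picked by the size of the replicate 1 difference. Of the 105 called, all replicate 1 values lay below all others in only 8 and above all others in 6. Such separation was not counted over all regions tested. Among the regions lower in replicate 1, chr9:90788331-90788625 stood out by size. Its rank percentile was 0 in all 5 replicate 1 libraries. In replicate 2 it was 24.4, 65.5, 53.9, 36.3 and 62.2, and in replicate 3 it was 57.2, 27.5, 60.5, 66.7 and 35.8 (dCas9-KRAB with Cr4, dCas9-KRAB with Cr10, dCas9 with Cr4, dCas9 with Cr10, and dCas9-KRAB without gRNA). Every replicate 2 and 3 library was thus above every replicate 1 library, no full replicate 1 list held a peak there, and pileups in the 10 lists were 19 to 57 fragments. The difference between replicate 1 and the other numbers was −49.0 percentile points (SE 7.73, limma F test adjusted p = 0.0156).

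At chr15:37426935-37427191 the contrast was tighter. Replicate 1 libraries were again at 0 in 5 of 5, replicate 2 libraries at 23.5, 34.9, 38.8, 33.1 and 37.6, and replicate 3 libraries at 45.3, 42.2, 41.4, 53.0 and 39.7, in the same order of groups. The groups of replicate numbers did not overlap between 1 and the others (−38.9 points, SE 4.64, limma F test adjusted p = 0.00338). The regions chr1:152430900-152431208 (−36.9 points, SE 7.22, limma adjusted p = 0.0408) and chr10:104687446-104687786 (−33.7 points, SE 5.53, limma adjusted p = 0.0167) had peaks in the same 10 lists and none in replicate 1.

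The opposite pattern was seen at chr9:75764468-75764755. Its rank percentile was 41.2, 47.2, 40.8, 16.7 and 24.9 in replicate 1, against 0, 4.5, 0, 0 and 2.6 in replicate 2 and 0, 0, 0, 5.1 and 0 in replicate 3. All replicate 1 values lay above all others (32.9 points, SE 4.45, limma F test adjusted p = 0.00728). In the deposited lists weak peaks were present in 5 of 10 libraries of the other numbers too. At chr4:169838628-169838893 the replicate 1 values were 40.03, 34.0, 43.6, 17.8 and 38.3, and 8 of the 10 other libraries were at 0 (32.5 points, SE 4.41, limma adjusted p = 0.00728). Further regions higher in replicate 1 were chr14:74504972-74505270 (30.7 points), chr18:57655390-57655665 (31.7 points) and chr9:140855041-140855333 (27.01 points), with limma adjusted p-values of 0.00868, 0.0380 and 0.0479.

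**Figure D5:**
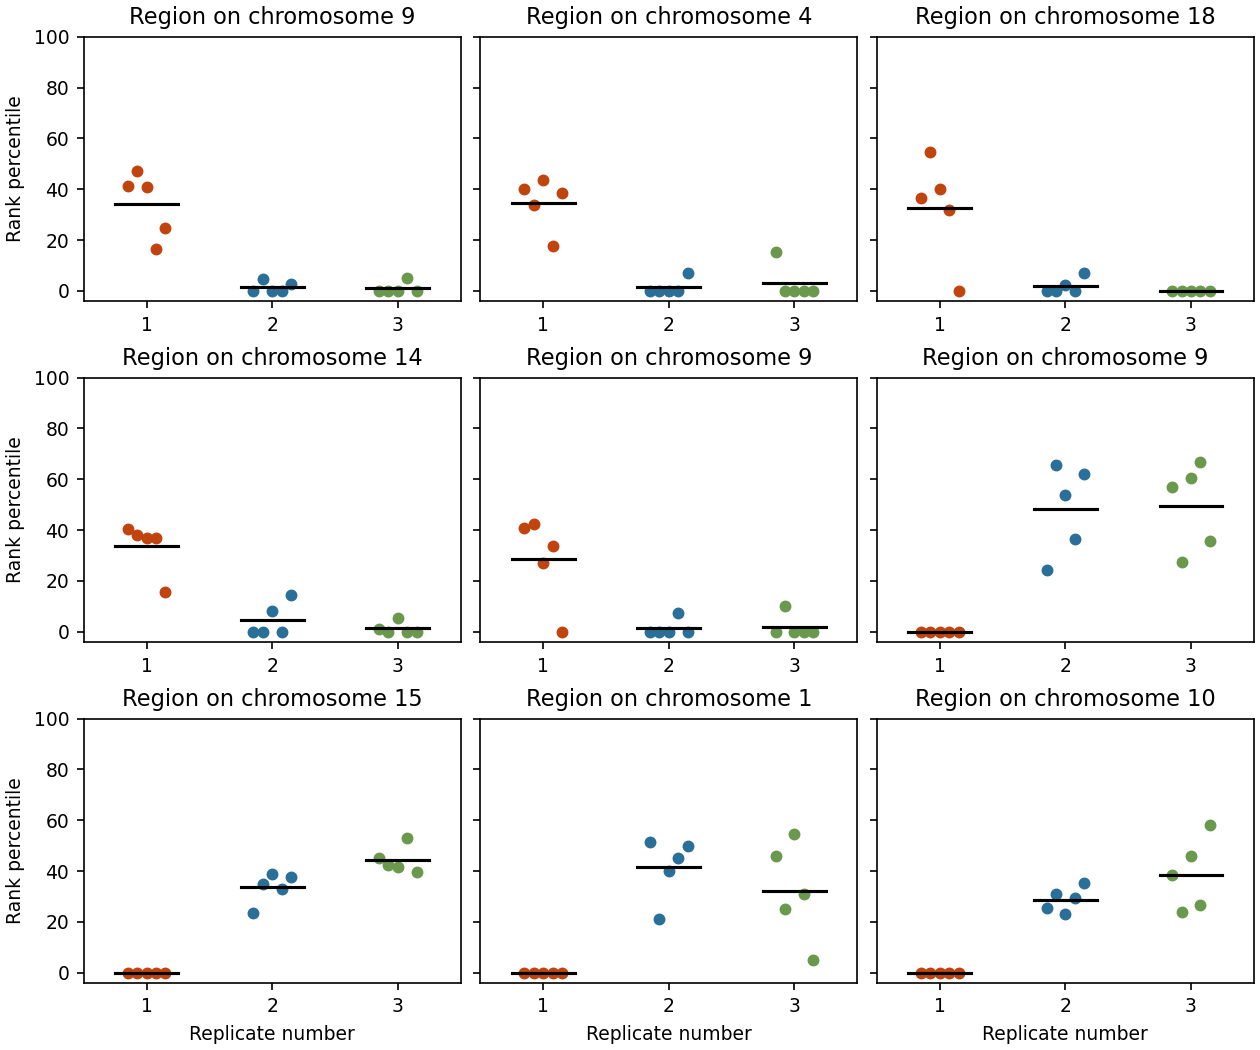
Rank percentile in lists of equal length (vertical axis, 0 for no peak) by replicate number (horizontal axis) at 9 variable regions called by the replicate number F test, 1 point per library, with the mean as a black line. The first 5 panels show regions higher in replicate 1 (chromosomes 9, 4, 18, 14 and 9), and the last 4 show regions at 0 in all replicate 1 libraries (chromosomes 9, 15, 1 and 10).

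A slope of the rank percentile on log2 list length was fitted in the same way. It called 52 of the 9309 variable regions (0.559%), against a background of 3.41% of all regions tested, and all 52 ranked higher in longer lists (background in this direction, 0.482%). Over all regions tested, 1790 of the 2085 calls ranked lower in longer lists. The rule favours the higher direction, since 98.8% of the variable regions lay in lists longer on average than those without them. The direction of the 52 is therefore a description. The steepest of the 52 was again chr9:90788331-90788625, with 84.1 points per doubling of list length (SE 19.5, limma adjusted p = 0.0223), followed by chr1:179417590-179417900 with 72.1 points (SE 14.3, limma adjusted p = 0.00891). The region on chromosome 1 had no peak in replicate 1 lists, peaks in 5 of 5 replicate 2 lists and peaks in 4 of 5 replicate 3 lists. The count was 24 without dCas9-KRAB with Cr4 replicate 3, 34 without dCas9-KRAB with Cr10 replicate 1, 13 without dCas9 with Cr10 replicate 3, 32 without dCas9-KRAB without gRNA replicate 1 and 0 without the 4 long lists. With the replicate number as a block it was 9, of which 6 ranked higher and 3 lower in longer lists.

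Presence of the variable regions did not separate guided dCas9-KRAB, that is, the 6 libraries of dCas9-KRAB with either gRNA, from the other 9 libraries. Guided dCas9-KRAB libraries held 8847 ± 4475 of them and the others 10320 ± 5671 (SD, n = 6 and 9), a difference of −1472.44 regions (exact two-sided permutation p = 0.605). In lists of equal length the means were 3862 ± 519 and 4002 ± 699 (exact permutation p = 0.678). Without the 4 long lists the difference was 355.667 regions, with the sign turned (exact permutation p = 0.810). For dCas9-KRAB the means were 10048 ± 6312 (Cr4) and 7647 ± 2429 (Cr10), for dCas9 11572 ± 4531 (Cr4) and 9800 ± 7716 (Cr10), and 9588 ± 6710 for dCas9-KRAB without a gRNA (SD, n = 3 each). Exact permutation tests between groups of 3 gave p-values of 0.6 to 1, where 0.1 is the smallest that 3 against 3 allows.

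Single regions gave no call by group either. Fisher's exact test of presence in guided dCas9-KRAB against the other libraries called none of the 20028 variable regions (background 0% of 51990 regions tested), and 318 (1.59%) had an unadjusted p below 0.05, against 0.881% of all regions tested. Of the 318, 65 were present more often in guided dCas9-KRAB. In the variable regions, the smallest p this test can give lies between 0.0001998 and 0.001998, depending on the number of lists. A variable region can thus pass adjustment only where many others share such a p. All regions tested also include the 10120 regions in 2 lists and the 3860 regions in 13 lists. These cannot reach an unadjusted p below 0.05, which lowers the share of 0.881%. The shares of 1.59% and 0.881% are therefore not read against each other. The limma fit on rank percentiles called 0 of the 9309 variable regions in the pooled comparison (background 0%), with 244 (2.62%) at an unadjusted p below 0.05, against 1.74% of all regions tested. On simulated data the pooled comparison called 18 of 100 shifts of 20 percentile points and 93 of 100 of 40 points. A count of 0 calls therefore does not show that ranks were unchanged.

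The separate comparisons likewise called 0 variable regions by limma, each with a background of 0%. For dCas9-KRAB set against the group without a gRNA, an unadjusted p below 0.05 was reached by 356 variable regions with Cr4 (3.82%, against 2.42% of all regions tested) and by 365 with Cr10 (3.92%, against 2.83%), and these comparisons share their control libraries. For dCas9-KRAB set against dCas9, it was reached by 220 with Cr4 (2.36%, against 1.24%) and by 320 with Cr10 (3.44%, against 2.49%). The F test over all 5 groups had 218 (2.34%, against 1.45%). Leaving out dCas9-KRAB with Cr10 replicate 3 gave 1 call in each of its 2 comparisons, and leaving out dCas9 with Cr10 replicate 3 gave 2 calls between dCas9-KRAB and dCas9 with Cr10.

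The lowest p in the limma F test over groups belonged to chr6:123190648-123190914 (adjusted p = 1, unadjusted p = 5.98e-05). Its rank percentile in lists of equal length was 0 in all 6 guided dCas9-KRAB libraries. It was 24.7, 34.7 and 29.6 in dCas9 with Cr4, 0, 0 and 5.5 in dCas9 with Cr10, and 9.8, 13.9 and 0 without a gRNA. The dCas9 libraries with Cr4 thus stood above all others, while dCas9 with Cr10 reached no more than 5.5. In the full lists a peak was present in replicate 3 of both guided dCas9-KRAB groups, with folds of 4.26 and 4.77.

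At chr3:133634971-133635514 the libraries without a gRNA were the high ones. The values were 0, 2.2 and 0.9 in dCas9-KRAB with Cr4, and 0 in all 3 libraries of dCas9-KRAB with Cr10. They were 0, 7.6 and 0 in dCas9 with Cr4, 0, 1.2 and 19.9 in dCas9 with Cr10, and 36.5, 23.8 and 51.5 without a gRNA. All 3 libraries without a gRNA lay above the other 12. Against these controls, the difference was −36.2 points for dCas9-KRAB with Cr4 and −37.3 points for dCas9-KRAB with Cr10 (SE 6.91 each, limma adjusted p = 1 each). In the opposite direction, chr13:46381706-46381974 had a peak in 5 of 6 guided dCas9-KRAB libraries and in 2 of 9 others (26.7 points, SE 6.58, limma adjusted p = 1 in the pooled comparison).

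Regions present in all libraries of some groups and in none of the others were rarer than those that followed whole replicate numbers. There were 2 among the variable regions (0.00999%; background 0.0137% of regions missing from at least 1 list), chr16:55189783-55190063 and chr16:75087943-75088414. Both were present in the 3 libraries of dCas9 with Cr4 and the 3 without a gRNA and absent from the other 9. Their folds were low, from 3.88 to 5.19 at chr16:55189783-55190063 and from 3.07 to 3.98 at the other, which had no peak in any list of equal length.

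Between pairs of groups, presence in 3 of 3 against 0 of 3 libraries was counted in both directions. Set against the libraries without a gRNA, dCas9-KRAB gained 104 variable regions with Cr4 (background 0.0931% of all regions) and lost 62 (0.061%), and with Cr10 it gained 66 (0.0576%) and lost 229 (0.216%). For dCas9 with Cr4 and with Cr10 set against the same controls, the gains were 16 (0.0169%) and 42 (0.0381%) and the losses 29 (0.0305%) and 36 (0.0389%).

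Against dCas9 with the same gRNA, dCas9-KRAB gained 8 (0.00847%) and lost 150 (0.146%) with Cr4, and gained 5 (0.00508%) and lost 154 (0.151%) with Cr10. With dCas9-KRAB, Cr4 gained 318 (0.295%) and lost 37 (0.033%) against Cr10. The rule selects regions that can show such patterns, so their shares among variable regions are not read against the background. The dCas9-KRAB group with Cr10, which had the shortest lists on average and no list of over 80000 peaks, also had the most variable regions absent from all 3 of its libraries, 4270 (21.3%), against 4.00% to 6.28% in the other groups.

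The globin and blood gene loci held few variable sites. Windows for 17 blood loci and the beta-globin cluster used hg19 positions from memory, which were not compared with any annotation. In the 17 blood loci, 25 of 207 regions (12.1%) were variable and 86 (41.5%) were in all 15 lists, where 16.96% and 32.1% of all regions on chromosomes 1 to 22 were. Windows of 4 genes of other lineages had 3 variable regions of 18. These counts are a description and were not tested.

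In the beta-globin cluster, which holds the embryonic, fetal and adult beta-like genes, 1 of 18 regions was variable and 11 were in all lists. The variable one, chr11:5288326-5288665, lay between the HS2 peak and the fetal gene promoters. It had a peak in dCas9-KRAB with Cr10 replicate 3 (fold 5.02), dCas9 with Cr4 replicate 2 (3.97), dCas9 with Cr10 replicate 3 (5.97) and all 3 libraries without a gRNA (3.92, 4.81 and 5.11). It was thus present in 1 of 6 guided dCas9-KRAB libraries and in 5 of 9 others, with pileups of 15 to 42 fragments, and Fisher's exact test adjusted over all regions gave p = 1. A neighbour just outside the rule, chr11:5291041-5291397, had a peak in 0 of 6 and 4 of 9 libraries.

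Among regulators of early blood cells, the TAL1 locus had 1 variable region of 8, chr1:47677570-47677916. TAL1 is a basic helix-loop-helix factor of early blood development. The region was present in 0, 4 and 5 of the 5 lists of replicates 1, 2 and 3, with folds of 2.998 to 4.74 and pileups of 34 to 113 fragments, and in 4 of 6 guided dCas9-KRAB libraries and 5 of 9 others. GATA2, a zinc finger factor of blood progenitors, had chr3:128207072-128207540 in 7 lists, at a median fold of 3.02. LMO2, which bridges TAL1 and GATA factors, had 3 of 11, among them chr11:33920929-33921195 in 10 lists (median fold 3.91) and chr11:33903461-33903962 in 7 (3.51).

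RUNX1, a runt domain factor of blood stem cells and megakaryocytes, had 7 variable regions of 31. Among them, chr21:36355938-36356313, was in 9 lists, of which 1, 3 and 5 were of replicates 1, 2 and 3. The MYB and HBS1L locus, with known erythroid enhancers between the genes, had 4 of 32, led by chr6:135505030-135505304 in 10 lists (median fold 3.72). The BCL11A locus, which encodes a repressor of fetal globin, had no region in all 15 lists of its 5, and its 1 variable region, chr2:60777471-60777801, was in 10 lists (median fold 4.41).

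ZFPM1, a cofactor of GATA1, had 3 of 22, of which chr16:88606255-88606635 was in 8 lists. GFI1B, a repressor of the erythroid and megakaryocyte lineages, had chr9:135872014-135872283 in 7 lists, none of them of replicate 1. SLC4A1, the anion exchanger of the red cell membrane, had 2 of 8, in 6 and 5 lists, and the alpha-globin cluster had 1 of 19, chr16:238715-238983 in 6 lists. No variable region was found at KLF1, NFE2, TFRC, EPOR or ETV6.

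Genes of lineages other than blood progenitors and red cells showed variable sites too. PAX5, a master regulator of B cells, had 2 of 11. Of these, chr9:36991588-36991893, was present in 5, 1 and 3 lists of replicates 1, 2 and 3. Its rank percentiles in lists of equal length were 7.0, 21.6, 25.4, 15.2 and 21.9 in replicate 1, all 0 in replicate 2, and 0 in 4 of 5 libraries and 22.1 in the remaining library in replicate 3. MYOD1, a master regulator of muscle, had chr11:17743645-17743905 in 9 lists (median fold 4.70), and ALB had none.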

How the data were processed

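Each library came as 1 peak list in narrowPeak layout on hg19. Per the submitters' processing notes, CASAVA 1.3, BWA and bedtools were used; the sources used here name no peak caller or threshold. The authors deposited a fold enrichment (a ratio) per peak, and p-values and q-values as −log10; the score column was deposited by the authors as a whole number and was not used. The summit pileup was the whole number of fragments k that met the fold, (k + 1)/(background + 1), and the Poisson p-value within 0.01 in −log10 p, as 100% of peaks did.

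Peaks on chromosomes 1 to 22 were merged at 1 bp of overlap. Lists of equal length held the 51784 strongest peaks by fold. Limma 3.58.1 (R 4.3.3, mean-variance trend, Benjamini-Hochberg adjustment over all regions tested, threshold 0.05, two-sided) was fitted to all 15 libraries. Its pooled comparison was tried on simulated data with normally distributed noise and shifts in regions of intermediate mean rank percentile. Shifts in weaker regions were not simulated. Counts per library were compared by exact permutation, pairs of lists by 100000 permutations of labels (scipy 1.17.1, Python 3.11.15).

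The members and lists were chosen with earlier results of these data known. Regions named were, by rule, all variable regions of the beta-globin cluster, up to 2 at each locus listed, up to 5 in each direction of a test (or the 3 lowest p), the 5 strongest, and whole-group or whole-replicate patterns; not all are printed, and some loci are not reported here. The 4 lists of over 80000 peaks were set apart, and list length was added to the model, after the data had been seen.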

Additional observations from a re-analysis of the deposited data

Results flagged for a closer look

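Among the 6 guided dCas9-KRAB libraries, dCas9-KRAB with Cr4 replicate 3 stood far above the rest with 17274 variable regions present. Its gap to the next library was 0.634 of the range of the 6, above Dixon's critical value of 0.625. The other 5 libraries held 4877 to 9416. This list is also the longest of the 6, with 86503 peaks, and whether its length accounts for the gap was not tested. Without this library the pooled difference in presence was −3157.78 regions (exact permutation p = 0.279), against −1472.44 with all libraries. On leaving out each library in turn, the pooled difference ran from −3157.78 to −503.917. In all, 10 groups of libraries and measures were examined by Dixon's criterion, and chance flags about 1 in 20.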

How the results depend on the processing

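The number of variable regions was 11458 when all lists had equal length, against 20028, and 19303 to 23036 under the other alternatives, with 19925 to 21408 on leaving out each library. Without the 4 long lists, chosen after seeing the data, the pooled difference in presence turned to 355.667 regions and the replicate 1 difference was −2216.5. On leaving out each library, the replicate 1 difference ran from −6650.78 to −5215.7. The replicate number F test called 793 variable regions with percentiles of the deposited lists, 56 with all regions of at least 1 value, 22 with group as a term, 21 with list length as a term (chosen after seeing the data), and 39 to 205 on leaving out each library. The list length slope called 12996 with deposited percentiles, which contain the length itself, 0 without the 4 long lists, and 13 to 69 on leaving out each library. On leaving out each library, dCas9-KRAB with Cr10 had 0 to 1 calls against no gRNA and 0 to 2 against dCas9 with Cr10. Beyond the fewer lists or regions in some alternatives, the cause was not tested.

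Deviations of same-numbered libraries correlated above 0.1 in 13 of 30 pairs (mean 0.119, against −0.0595 for other pairs). For each library, the mean correlation with libraries of other groups was taken by replicate number, and in 10 of 15 libraries their own number had the highest mean. As not every pair was above 0.1 and no label says what the numbers mark, the libraries were not treated as paired. With the replicate block the pooled difference in presence was the same −1472.44 regions (permutation within numbers, p = 0.537), the limma comparisons of groups called 0, and the list length slope called 9 (6 higher and 3 lower in longer lists). Absent peaks have no value in the lists, which limits all comparisons of weak sites.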
